A study of Homo sapiens with 12 samples.

Results

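The 6 human Schlafen genes, SLFN5, SLFN11, SLFN12, SLFN12L, SLFN13 and SLFN14, were followed in a T-cell leukemia line with and without a knockout of SLFN11. They were taken by gene symbol from the 44147 features of the deposited gene tables, each symbol matching 1 feature. The rule itself uses no measured value, but the members were chosen with earlier results of these data known. The genes form 1 cluster on chromosome 17. SLFN5 lies on the plus strand at chr17:33570055-33600674 (hg19), and the other 5 lie on the minus strand: SLFN11 at chr17:33677324-33700720, SLFN12 at chr17:33738079-33760302, SLFN13 at chr17:33762115-33775856, SLFN12L at chr17:33791268-33864880 and SLFN14 at chr17:33875144-33885117.

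Schlafen proteins share a core domain with RNA-cleaving activity in several members, and many of their genes respond to type I interferon in immune and tumor cells. SLFN11 is recruited to stressed replication forks through the single-strand binding protein RPA, blocks further replication there, and is known as a determinant of how tumor cells respond to DNA-damaging drugs. SLFN5 is a nuclear protein described as a transcriptional co-repressor of interferon-stimulated genes. SLFN12 is an RNase activated when small molecules glue it to the phosphodiesterase PDE3A, SLFN13 cleaves transfer and ribosomal RNA, SLFN14 is a ribosome-associated RNase known from the platelet and erythroid lineages, and SLFN12L is a little-studied relative of SLFN12.

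CCRF-CEM is an established T lymphoblast line. The parent line carried wild-type SLFN11 and the other line carried a knockout of that gene. The labels do not say whether the knockout line is 1 clone or where in SLFN11 the edit lies, and each genotype is represented by 1 line. Each line received either DMSO, the solvent, or prexasertib at 100 nM for 6 h, with 3 libraries in each of the 4 groups. Prexasertib blocks CHK1, the kinase that restrains origin firing and entry into mitosis when replication is disturbed. Separate cultures are not stated for the 3 libraries of a group, and the p-values then reflect only how these libraries vary, which may be technical. For all 12 records, the library name in the title belongs to a file attached to the opposite treatment of the same line. Groups are therefore called labelled DMSO and labelled prexasertib after the record that holds the file. If the library names hold, every treatment difference and every interaction changes sign and the line comparisons under the 2 treatments trade places, while the line comparison over both treatments is untouched.

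The libraries held 47887791 to 77548202 exonic reads, and introns took 23.9 to 30.3% of each library's reads, the highest share being that of labelled parent prexasertib replicate 1. All 12 T lymphoblast markers had a mean of at least 1 CPM (read counts scaled to the size and composition of the library), and their summed level was 1564 to 1899 CPM in parent and 2207 to 2265 CPM in knockout libraries. No myeloid marker of 5 reached that level. Of 5 B cell markers CD79A reached it and MS4A1 was at 0 in every library. The B cell sum was 17.1 to 22.9 CPM in parent and 28.5 to 33.2 CPM in knockout libraries. EPCAM and KRT8 were the 2 of 7 epithelial, fibroblast and erythroid markers that did, with a summed level for the 7 of 2.92 to 4.30 CPM in parent and 11.3 to 12.9 CPM in knockout libraries. The T lymphoblast, B cell and epithelial, fibroblast and erythroid sums moved with the line, and their part in the results on the lines was not tested.

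The sequence before the start of transcription is shown for the 3 members that RefSeq's promoter table (GRCh38.p14) holds, because the exonic reads of SLFN11, SLFN12 and SLFN12L moved the same way between the lines, as did those of SLFN13. SLFN5, SLFN13 and SLFN14 are named only. Each run is the 250 bases before the start, read 5′ to 3′ on the minus strand. Capitals mark matches, on either strand, to 3 motifs: CCGGAA, the core of ETS factor sites, TGANTCA, the AP-1 site, and GAAA, any 2 bases and GAAA again, the core of the interferon-stimulated response element (ISRE). The spans are chr17:35373622-35373871 for SLFN11, chr17:35433175-35433424 for SLFN12 and chr17:35537679-35537928 for SLFN12L.
SLFN11: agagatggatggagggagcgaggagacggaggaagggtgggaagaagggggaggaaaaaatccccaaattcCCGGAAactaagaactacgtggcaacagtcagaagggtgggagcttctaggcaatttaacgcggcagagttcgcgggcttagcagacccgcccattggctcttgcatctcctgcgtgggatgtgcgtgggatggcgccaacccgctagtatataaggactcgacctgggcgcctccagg
SLFN12: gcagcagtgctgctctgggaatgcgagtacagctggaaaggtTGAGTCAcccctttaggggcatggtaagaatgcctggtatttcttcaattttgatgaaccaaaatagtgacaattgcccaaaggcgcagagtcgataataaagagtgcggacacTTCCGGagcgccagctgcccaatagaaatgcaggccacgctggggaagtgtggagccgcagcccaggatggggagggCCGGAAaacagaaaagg
SLFN12L: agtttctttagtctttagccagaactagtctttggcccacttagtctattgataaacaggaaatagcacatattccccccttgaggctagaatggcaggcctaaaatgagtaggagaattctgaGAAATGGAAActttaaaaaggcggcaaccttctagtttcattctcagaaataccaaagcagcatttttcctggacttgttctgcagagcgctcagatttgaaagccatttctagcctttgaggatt
The SLFN11 run held 1 ETS core, 179 to 174 bases before the start. The SLFN12 run held 1 AP-1 match at 208 to 202 bases and 2 ETS cores, at 94 to 89 and at 17 to 12 bases. The SLFN12L run held 1 ISRE core, at 126 to 117 bases, and neither of the other motifs. Among 35116 promoters of that length in the table, 14.5% held the ETS core, 6.57% the AP-1 site and 3.02% the ISRE core. No motif was common to the 3 runs, and a match is a description of letters only.

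Levels differed widely between the members. On the exonic TPM scale, which corrects for gene length and library size, SLFN11 and SLFN5 were the abundant members, SLFN12 and SLFN13 were low, and SLFN12L and SLFN14 were close to the limit of detection. In the parent libraries labelled DMSO, SLFN11 stood at 16.7 ± 1.52 TPM, SLFN5 at 10.1 ± 0.575, SLFN12 at 2.25 ± 0.342, SLFN13 at 1.43 ± 0.0465, SLFN12L at 0.0796 ± 0.0204 and SLFN14 at 0.00460 ± 0.00797 (mean ± SD, n = 3). No 2 neighbours in that order overlapped between libraries. The labelled prexasertib parent libraries had the same order, again with no overlap between neighbours. In the knockout line labelled DMSO the first 2 changed places, with SLFN5 at 19.3 ± 0.928 TPM above SLFN11 at 14.18 ± 0.385 TPM (mean ± SD, n = 3). In the knockout line labelled prexasertib, SLFN11 and SLFN5 overlapped, and so did SLFN12 and SLFN13. SLFN12L and SLFN14 overlapped in both knockout groups.

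**Figure D1:**
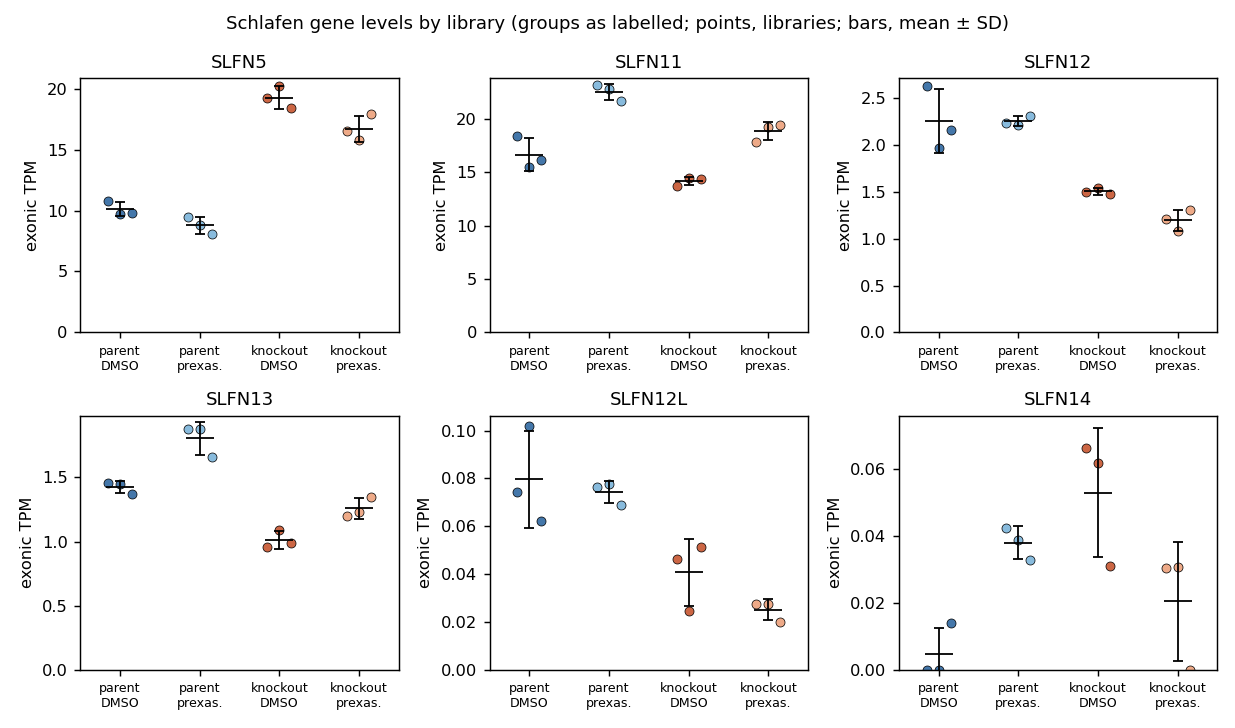
Exonic TPM (y axis, linear from 0) of each Schlafen gene in the 12 libraries, by labelled group (x axis); points are libraries and bars are mean ± SD (n = 3). SLFN5 is higher and SLFN12, SLFN13 and SLFN12L are lower in every knockout library than in every parent library. On this TPM scale SLFN11 is lower in knockout libraries only within each labelled treatment.

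The cluster was read first in knockout against parent over both treatments, the comparison that the label conflict does not touch. SLFN5 was higher in the knockout line, and SLFN11, SLFN12, SLFN13 and SLFN12L were lower. Log2 fold changes ran from 0.72 for SLFN5 to -1.47 for SLFN12L. In edgeR's quasi-likelihood test, fitted on the exonic counts of 23045 genes with Benjamini-Hochberg adjustment and called at an adjusted p of at most 0.05, 5 of the 5 members tested were called, 1 higher and 4 lower. Of all genes tested, 43.6% were called, 21% higher and 22.5% lower. The median log2 fold change of the 5 was -0.72, beside -0.03 over all genes. SLFN14 did not pass the filter on low counts and was not tested.

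SLFN11, the targeted gene, kept most of its RNA. Parent libraries had 18.4, 15.5 and 16.1 TPM when labelled DMSO and 23.2, 22.8 and 21.7 TPM when labelled prexasertib. Knockout libraries had 13.7, 14.5 and 14.3 TPM when labelled DMSO and 17.9, 19.3 and 19.5 TPM when labelled prexasertib. On TPM the lines did not overlap within a treatment, but the labelled prexasertib knockout libraries lay within the parent range. On exonic CPM, the scale of the edgeR fit, all knockout libraries (65.9 to 90.7) lay below all parent libraries (91.2 to 118.9). The edgeR fold changes of all members come from these scaled counts and differ from ratios of TPM. For SLFN11 the mean TPM was 19.6 in parent and 16.5 in knockout libraries. The log2 fold change was -0.46 (SE 0.04, edgeR adjusted p = 5.62e-11), or 1.38-fold lower. Gene counts do not show whether reads cross the edited position, so they do not check the knockout at the level of protein. In bulk RNA, fewer expressing cells and less RNA per cell cannot be told apart.

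SLFN5 moved opposite to SLFN11, SLFN12, SLFN13 and SLFN12L, the 4 other members tested. Its parent libraries had 10.8, 9.73 and 9.79 TPM when labelled DMSO and 9.46, 8.81 and 8.08 TPM when labelled prexasertib. Its knockout libraries had 19.2, 20.2 and 18.4 TPM when labelled DMSO and 16.5, 15.8 and 17.9 TPM when labelled prexasertib. Every knockout library was above every parent library. The log2 fold change was 0.72 (SE 0.04, edgeR adjusted p = 1.27e-14), a 1.64-fold higher level.

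SLFN12, the PDE3A-dependent RNase, had 2.63, 1.97 and 2.16 TPM in parent libraries labelled DMSO and 2.23, 2.21 and 2.31 TPM in those labelled prexasertib. Knockout libraries had 1.497, 1.54 and 1.48 TPM when labelled DMSO and 1.21, 1.08 and 1.30 TPM when labelled prexasertib. All 6 knockout libraries were below the lowest parent library, with a log2 fold change of -0.96 (SE 0.08, edgeR adjusted p = 1.95e-10), or 1.95-fold lower. The member nearest to SLFN12 is SLFN13, the transfer RNA-cleaving member. SLFN13 had 1.46, 1.45 and 1.37 TPM in parent libraries labelled DMSO and 1.88, 1.88 and 1.66 TPM in those labelled prexasertib. Knockout libraries had 0.955, 1.09 and 0.989 TPM when labelled DMSO and 1.196, 1.23 and 1.35 TPM when labelled prexasertib. The lines stood apart, if narrowly: the highest knockout library was at 1.35 TPM and the lowest parent library at 1.37 TPM. The log2 fold change of SLFN13 was -0.72 (SE 0.06, edgeR adjusted p = 6.53e-11).

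SLFN12L rested on few reads. Parent libraries held 23, 33 and 15 exonic reads when labelled DMSO and 18, 20 and 14 when labelled prexasertib. Knockout libraries held 14, 6 and 11 when labelled DMSO and 6, 6 and 4 when labelled prexasertib. Per length and depth the lines did not overlap, at 0.0624 to 0.102 TPM in parent and 0.0200 to 0.0511 TPM in knockout libraries. The log2 fold change was -1.47 (SE 0.34, edgeR adjusted p = 0.000913), with a 95% confidence interval from -2.13 to -0.80.

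SLFN14 was at or near 0. Its exonic reads were 0, 0 and 2 in parent libraries labelled DMSO, and 6, 6 and 4 in those labelled prexasertib. Knockout libraries held 12, 9 and 4 when labelled DMSO and 4, 4 and 0 when labelled prexasertib. A count of 0 allows up to 3 reads, or 0.0425 and 0.0438 CPM in the 2 parent libraries and 0.0553 CPM in the knockout library, for counting error only. Parent libraries labelled DMSO lay below all parent libraries labelled prexasertib and all knockout libraries labelled DMSO, on at most 12 reads in a library. These differences were not tested on exonic reads. Of the 51 exonic reads over all libraries, 30 lay outside other genes. Per kb, SLFN14 exons held 1.47 reads in a library on average and its introns 1.49, so exons were not the denser part. Whether these reads come from SLFN14 messenger RNA was not tested.

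The same directions held under each treatment, with 5 of 5 members called in both. Under labelled DMSO, where 40% of genes were called, the log2 fold changes were 0.66 for SLFN5, -0.51 for SLFN11, -0.86 for SLFN12, -0.78 for SLFN13 and -1.24 for SLFN12L. Under labelled prexasertib, where 28.1% of genes were called, they were 0.78, -0.41, -1.06, -0.67 and -1.69 in the same order. The largest edgeR adjusted p of SLFN5, SLFN11, SLFN12 and SLFN13 in these comparisons was 5.55e-07. The SLFN12L calls were weaker, at an adjusted p of 0.0308 under labelled DMSO and 0.0133 under labelled prexasertib. The first was lost without parent DMSO replicate 2 (adjusted p = 0.156) or knockout DMSO replicate 1 (0.0538) or 2 (0.135), and the second without knockout prexasertib replicate 3 (0.0578). The first was also lost with no filter on low counts (edgeR adjusted p = 0.0702) and on the authors' TPM with a pseudocount of 1 (limma adjusted p = 0.0748).

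Sequence shared between members limits how well reads can be assigned. Of the 50-base words of the annotated SLFN11 transcripts, 9.69% also occur in transcripts of another member, against 6.50% for SLFN13, 1.75% for SLFN12L, 1.33% for SLFN12 and 0 for SLFN5 and SLFN14. The levels of SLFN11, SLFN12, SLFN13 and SLFN12L are uncertain for that reason, by an amount that was not measured. Across exons SLFN11 had 921 reads per kb in a library on average and SLFN12L 2.95.

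Genes next to the cluster were then read in the same comparison. Within 500 kb of the cluster the tables as analysed here held 70 other genes, of which 19 had a mean of at least 1 CPM. Of those 19, 5 were higher, 4 were lower and 10 were not called in the knockout line, where 54.8% of all genes at that level were called. The 3 neighbours that changed most were unnamed transcripts lying beside members, and the counts do not show whether their reads begin in those members. RP11-799D4.4, at chr17:33558469-33569982 just ahead of SLFN5, rose with it by 0.48 (SE 0.08, edgeR adjusted p = 2.52e-05). RP11-686D22.8 at chr17:33733703-33736787 and RP11-686D22.7 at chr17:33736621-33737247, between SLFN11 and SLFN12, fell by 0.74 (SE 0.15, adjusted p = 0.000201) and 0.71 (SE 0.16, adjusted p = 0.000760).

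Beyond the cluster the changes were smaller on both sides. On the SLFN5 side, NLE1, a ribosome assembly factor gene, differed by 0.15 (adjusted p = 0.00115), ZNF830 by 0.25 (adjusted p = 0.000621), LIG3, the DNA ligase III gene, by -0.10 (adjusted p = 0.0346), and FNDC8 by -0.15 (adjusted p = 0.263). On the SLFN14 side, RP11-1094M14.11 differed by 0.21 (adjusted p = 0.0221), AP2B1, an adaptor subunit of clathrin-coated vesicles, by 0.22 (adjusted p = 0.00383), RASL10B by -0.14 (adjusted p = 0.0931), and the small RNA pseudogene RN7SKP274 by -0.22 (adjusted p = 0.0474). Strand use in the counting is not given in the sources used here, so reads of overlapping or antisense transcripts may be shared.

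**Figure D2:**
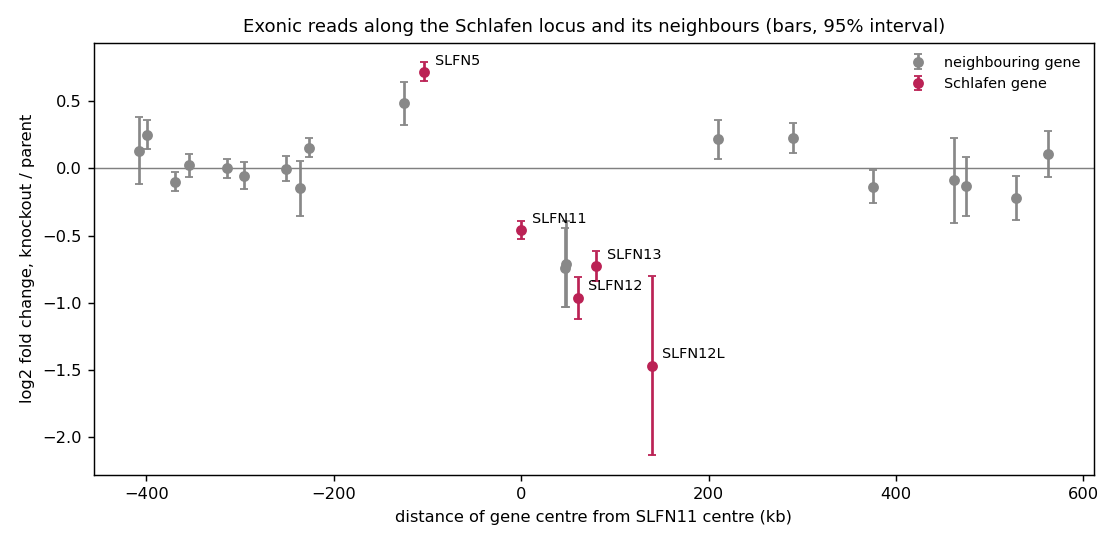
Log2 fold change of exonic reads, knockout against parent over both treatments (y axis, edgeR, bars are 95% confidence intervals), against distance of each gene's centre from the centre of SLFN11 (x axis, kb) for 5 Schlafen genes and the 19 neighbours with a mean of at least 1 CPM. The members and the 3 transcripts beside them run from 0.72 to -1.47, while the other 16 neighbours lie between 0.25 and -0.22.

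Intronic reads, which come largely from RNA not yet spliced, gave a second reading of the same genes. In the line comparison over both treatments, 5 of 6 members were called on intronic reads, 2 higher and 3 lower, where 33% of 19852 genes were called by edgeR. SLFN12, SLFN13 and SLFN12L fell by 1.06 (SE 0.15), 1.31 (SE 0.31) and 1.24 (SE 0.18), and SLFN5 rose by 0.33 (SE 0.06), each in the direction of its exonic reads. SLFN11 did not: its intronic reads rose by 0.49 (SE 0.05, edgeR adjusted p = 9.08e-08) in the knockout line. SLFN14 differed by -0.36 (SE 0.47, adjusted p = 0.601), with 0 to 17 intronic reads in a library.

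**Figure D3:**
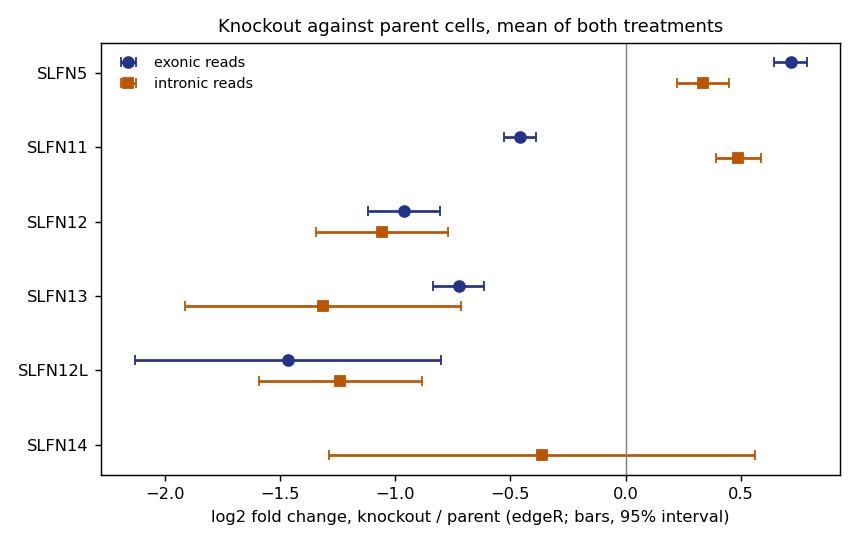
Log2 fold change of knockout against parent over both treatments (x axis) for each Schlafen gene (y axis), from exonic reads (circles) and intronic reads (squares). Bars are approximate 95% confidence intervals computed from the edgeR test. SLFN11 is the gene with the 2 read classes on opposite sides of 0, at -0.46 and 0.49.

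The intronic share of SLFN11 reads separated the lines completely. It was 17.6, 17.7 and 15.9% in parent libraries labelled DMSO and 19.7, 18.6 and 18.4% in those labelled prexasertib. Knockout libraries had 29.6, 29.1 and 27.4% when labelled DMSO and 31.5, 29.3 and 30.1% when labelled prexasertib. The means were 29.5 ± 1.32% in knockout and 18.0 ± 1.26% in parent libraries (SD, n = 6 each), a difference of 11.5 percentage points with an exact two-sided permutation p = 0.002165, the smallest that 6 against 6 libraries can give. In each treatment alone the difference was also complete, 11.6 points under labelled DMSO and 11.4 under labelled prexasertib, where 3 against 3 libraries cannot go below an exact permutation p of 0.1.

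The shares of the other 5 members did not pass the test with all libraries. That test exchanged line labels without regard to treatment, so differences between the treatments counted as spread. SLFN5 had 13.8 ± 2.17% in knockout and 17.6 ± 4.05% in parent libraries (SD, n = 6 each, exact permutation p = 0.0844), and the lines overlapped over both treatments. Within each treatment they did not, with 11.7 to 12.5% in knockout against 13.8 to 14.1% in parent libraries labelled DMSO, and 14.9 to 16.9% against 20.4 to 22.6% in those labelled prexasertib, differences of -2.02 and -5.53 points at the smallest exact permutation p that 3 against 3 libraries can give. SLFN12 had 17.6 against 18.7% (exact permutation p = 0.558, n = 6 each) and SLFN12L 80.8 against 78.2% (exact permutation p = 0.446, n = 6 each). SLFN13 had 2.47 against 3.75% (exact permutation p = 0.0519, n = 6 each), and leaving out parent prexasertib replicate 2 or 3, or knockout prexasertib replicate 3, took the exact permutation p to 0.0433, 0.0433 and 0.0260. SLFN14 had 65.8 ± 5.92% (n = 5, 1 knockout library having no read) against 80.9 ± 19.3% (n = 6), an exact permutation p = 0.143, or 0.0238 without parent prexasertib replicate 1. Each of the 6 members had 1 such test over both treatments. SLFN12, SLFN13 and SLFN14 also separated the lines under labelled DMSO alone, with every knockout share below every parent share. The differences were -2.304, -1.813 and -33.78 points, again at the smallest p of that test for 3 against 3 libraries. Under labelled prexasertib the lines overlapped for these members. SLFN12L overlapped under both treatments, and the SLFN14 shares rest on few reads.

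Across 16355 genes with a mean of at least 10 intronic and 10 exonic reads, the log2 ratio of intronic to exonic reads was tested with limma. The SLFN11 ratio was 0.93 higher in the knockout line (SE 0.05, limma adjusted p = 1.82e-05), the 4th smallest p of all genes tested. The SLFN5 ratio was lower, by -0.40 (SE 0.08, limma adjusted p = 0.00992). SLFN12 at -0.12, SLFN13 at -0.59 and SLFN12L at 0.21 were not called, which makes 2 of 5 members where 17% of genes were called.

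**Figure D4:**
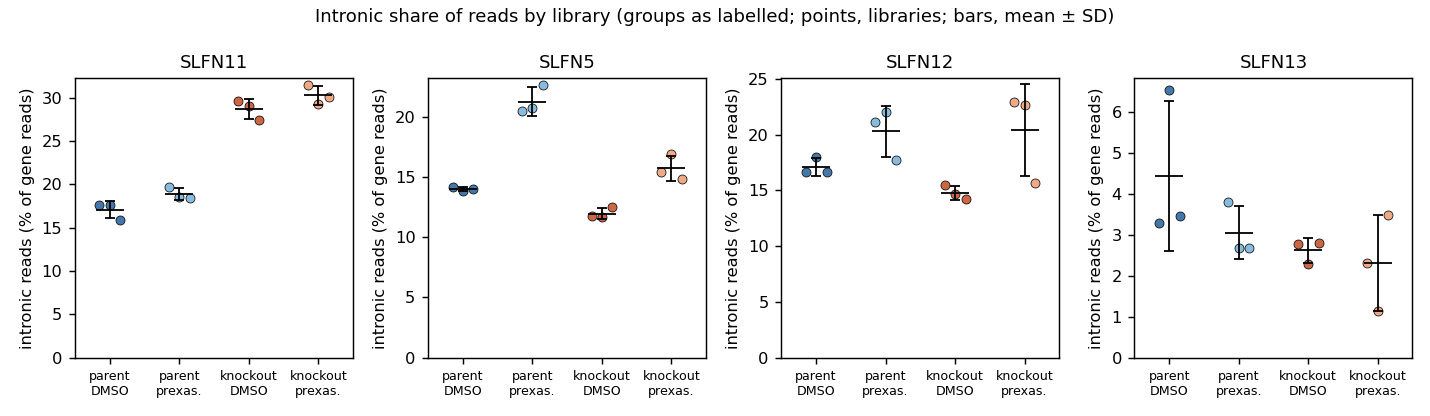
Intronic reads as a percentage of a gene's exonic and intronic reads (y axis) in each library by labelled group (x axis) for SLFN11, SLFN5, SLFN12 and SLFN13; points are libraries and bars are mean ± SD (n = 3). SLFN11 lies between 15.9 and 19.7% in the 6 parent libraries and between 27.4 and 31.5% in the 6 knockout libraries, and SLFN5 is higher in the labelled prexasertib libraries of each line.

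Prexasertib was compared with DMSO inside each line, with the labels of the records. SLFN5 was lower and SLFN11 was higher in labelled prexasertib in both lines. SLFN13 was higher and SLFN12 lower in the knockout line. If the library names hold, each of these directions is the opposite. In parent cells, 2 of 5 members were called on exonic reads, 1 higher and 1 lower, where 36.3% of genes were called. In knockout cells, 4 of 5 were called, 2 higher and 2 lower, where 12.9% of genes were called.

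SLFN11 rose by 0.30 (SE 0.05, edgeR adjusted p = 3.04e-05) in parent cells and by 0.40 (SE 0.05, adjusted p = 2.67e-06) in knockout cells. In both lines the TPM values of the labelled prexasertib libraries were above all labelled DMSO libraries. SLFN5 fell by 0.34 (SE 0.05, adjusted p = 5.49e-06) in parent cells, with no overlap, and by 0.22 (SE 0.05, adjusted p = 0.00348) in knockout cells, again with no overlap. The SLFN5 call in knockout cells was lost on the authors' TPM values (limma adjusted p = 0.0966).

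SLFN13 differed by 0.19 (SE 0.08, edgeR adjusted p = 0.0543) in parent cells and rose by 0.30 (SE 0.08, adjusted p = 0.0133) in knockout cells. The knockout call was lost without knockout DMSO replicate 1 or 3 or knockout prexasertib replicate 3, with adjusted p values from 0.0503 to 0.0708. The parent difference was called in the run on reads outside other genes (edgeR adjusted p = 0.0383). Every exonic read of SLFN13 lay outside other genes, so its own counts were the same in that run. On the authors' TPM with a pseudocount of 1 and of 0.1, the SLFN13 difference was called in parent cells (limma adjusted p = 0.0234 and 0.0345) and not in knockout cells (0.135 and 0.125). SLFN12 differed by -0.14 (SE 0.11, adjusted p = 0.337) in parent cells and fell by 0.35 (SE 0.12, adjusted p = 0.0482) in knockout cells. That last call was lost when any 1 of 9 libraries was left out, namely each knockout library, parent DMSO replicate 3 and parent prexasertib replicates 2 and 3, with adjusted p values from 0.0521 to 0.197. It was also lost with no filter (edgeR adjusted p = 0.0693), on all reads of the gene (0.190) and on the authors' TPM (limma adjusted p = 0.170 and 0.135). SLFN12L differed by -0.25 (SE 0.43) and -0.70 (SE 0.53), neither of which was called.

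**Figure D5:**
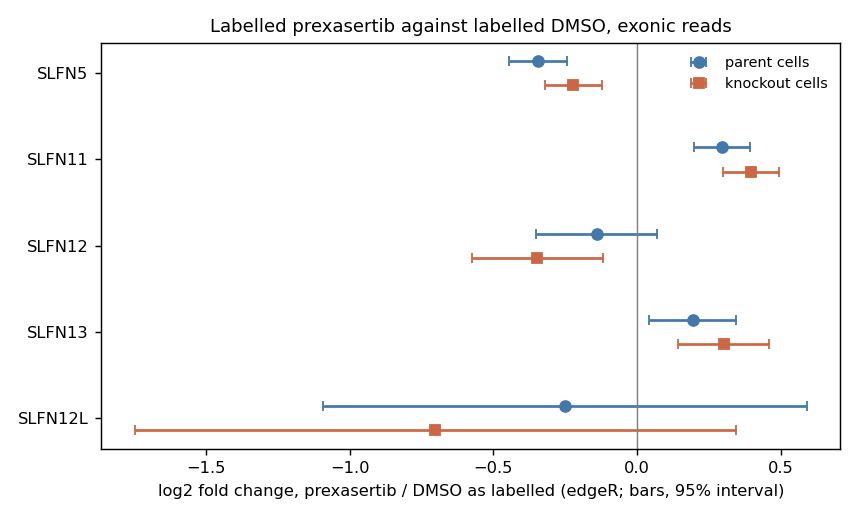
Log2 fold change of exonic reads, labelled prexasertib against labelled DMSO (x axis), for 5 Schlafen genes (y axis) in parent cells (circles) and knockout cells (squares). Bars are approximate 95% confidence intervals computed from the edgeR test. SLFN5 lies below 0 and SLFN11 above 0 in both lines, and for each gene the bars of the 2 lines overlap.

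No member's response was shown to differ between the lines. The interaction, the parent response minus the knockout response, was called by edgeR for 0 of 5 members on exonic reads. By edgeR 16.8% of all genes were called, and 0 of the members had an unadjusted p under 0.05. DESeq2 called 0 of 4, and its share of all genes is not given. The edgeR interaction was -0.12 for SLFN5 (95% confidence interval -0.26 to 0.02) and -0.10 for SLFN11 (-0.24 to 0.04). It was 0.21 for SLFN12 (-0.10 to 0.52), -0.11 for SLFN13 (-0.33 to 0.11) and 0.45 for SLFN12L (-0.88 to 1.78). Without parent prexasertib replicate 1, the library with the highest intronic share, the SLFN5 interaction was called at -0.18 (edgeR adjusted p = 0.0216).

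On intronic reads SLFN11 rose with labelled prexasertib in both lines, by 0.27 (SE 0.07, edgeR adjusted p = 0.00655) in parent and 0.51 (SE 0.07, adjusted p = 2.67e-05) in knockout cells. It was the single member called of 6 in each, where 30.8% and 12% of genes were called. The parent call was lost when the 2 groups were fitted alone (adjusted p = 0.0551). The SLFN11 interaction of -0.25 (SE 0.10, edgeR adjusted p = 0.123) was not called, and neither was that of any other member. By edgeR 9.84% of all genes were called, and 1 of 6 members had an unadjusted p under 0.05. DESeq2 called 0 of 5, and its share of all genes is not given.

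SLFN5 introns and exons parted under treatment. While its exonic reads fell, its intronic reads differed by 0.18 (SE 0.08, adjusted p = 0.103) in parent cells and 0.24 (SE 0.08, adjusted p = 0.0549) in knockout cells, both upward. Without parent prexasertib replicate 1 both were called, at 0.28 (adjusted p = 0.00144) and 0.24 (adjusted p = 0.00199), and without parent prexasertib replicate 3 the first was 0.11 (adjusted p = 0.361) and the second was called (adjusted p = 0.0386). The intronic share of SLFN5 was 14.1, 13.8 and 13.998% in parent libraries labelled DMSO and 20.4, 20.7 and 22.6% in those labelled prexasertib. It was 11.7, 11.7 and 12.5% in knockout libraries labelled DMSO and 15.4, 16.9 and 14.9% in those labelled prexasertib. The treatments did not overlap in either line. These shares are not corrected for the library. Over all genes, introns took 23.93 to 25.56% of reads in parent libraries labelled DMSO and 25.93 to 30.27% in those labelled prexasertib. In knockout libraries they took 24.95 to 25.82% and 25.42 to 25.96%.

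The SLFN5 ratio of intronic to exonic reads was higher by 0.46 in labelled prexasertib in each line. It was called in parent cells (SE 0.12, limma adjusted p = 0.0264), as 1 of 5 members where 15.4% of genes were called. In knockout cells 0 of 5 members were called by limma (SLFN5 adjusted p = 0.0791) where 2.21% of genes were called, with 3 at an unadjusted p under 0.05. The parent call was lost without any 1 of parent DMSO replicates 1, 2 and 3 and parent prexasertib replicates 2 and 3, with adjusted p values from 0.0614 to 0.0737. In knockout cells SLFN5 was called without parent prexasertib replicate 1 (adjusted p = 0.0229), and SLFN12 without knockout prexasertib replicate 3 (0.77, adjusted p = 0.0316). The interaction on the ratio was called for 0 of 5 members, with 0 at an unadjusted p under 0.05, where 4.23% of genes were called.

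On the authors' TPM, the make-up of the family shifted more than its total. The summed TPM of the 6 genes was 30.5 ± 2.44 in parent cells labelled DMSO, 35.5 ± 1.53 in parent cells labelled prexasertib, 36.1 ± 1.18 in knockout cells labelled DMSO and 38.1 ± 1.69 in knockout cells labelled prexasertib (mean ± SD, n = 3). SLFN11 took 54.6, 63.6, 39.3 and 49.6% of that sum in the same order, and the 4 low members together 12.3, 11.8, 7.23 and 6.57%. The level of SLFN5 relative to SLFN11 was 0.607 ± 0.0220, 0.389 ± 0.0179, 1.36 ± 0.0670 and 0.886 ± 0.0602. These are descriptions, with no test. The sum was not taken on the scaled counts used for the tests, where differences between the lines are not the same as on TPM. Whether the total differs between the lines on that scale is therefore not shown.

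Genes that work with Schlafen proteins were read from 3 lists. The partners list holds the RPA subunits, the replication licensing genes CDT1 and MCM3, the ubiquitin ligase genes DDB1, CUL4A and CUL4B, and PDE3A, which binds SLFN12. In the line comparison over both treatments, 5 of 8 tested were higher and 1 was lower, beside the 43.6% of all genes called, with a median of 0.17 against -0.03 over all genes. RPA1 rose by 0.39 (SE 0.04, edgeR adjusted p = 7.99e-09) and RPA3 by 0.31 (SE 0.04, adjusted p = 6.22e-07). Under labelled DMSO 5 were higher and 1 was lower in the knockout line (40% of all genes called), led by RPA1 at 0.73 and MCM3 at 0.31. Under labelled prexasertib 2 were higher and 0 lower (28.1% of all genes called), led by RPA3 at 0.26 and MCM3 at 0.16. In parent cells labelled prexasertib, 5 were higher and 1 was lower (36.3% of all genes called), led by RPA1 at 0.75 (adjusted p = 3.94e-11) and MCM3 at 0.31 (adjusted p = 8.79e-06). In knockout cells, where 12.9% of all genes were called, MCM3 was the 1 called of 8, at 0.16 (adjusted p = 0.0260), and CDT1 at 0.16 was not (adjusted p = 0.107).

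RPA1, the largest RPA subunit, had the smallest p among the partners for a difference in response between the lines. It went from 75.5 ± 2.59 CPM in parent cells labelled DMSO to 127 ± 11.9 in those labelled prexasertib, and from 125 ± 1.92 to 132 ± 0.982 CPM in knockout cells (mean ± SD, n = 3). Its interaction was 0.68 (SE 0.08, edgeR adjusted p = 5.33e-07), and CUL4A followed at 0.23 (SE 0.07, adjusted p = 0.0243). The level was low in 1 group alone, parent cells labelled DMSO, and 3 of the 8 partners had a called interaction, 2 of them higher, beside 16.8% of all genes.

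Of 25 interferon pathway genes, which include receptors, signal transducers and target genes, 6 were higher and 9 were lower in the knockout line, beside 43.6% of all genes called, with a median of -0.03 in the list and over all genes. The antiviral GTPase gene MX1 rose by 0.92 (SE 0.06, edgeR adjusted p = 5.07e-13), and OAS2, an antiviral oligoadenylate synthetase gene, fell by 1.18 (SE 0.09, adjusted p = 5.63e-11). Target genes moved in both directions. The balance differed between the treatments. Under labelled DMSO 7 were higher and 4 lower in the knockout line (40% of all genes called), led by MX1 at 0.85 and ISG15 at 0.72. Under labelled prexasertib 3 were higher and 10 lower (28.1% of all genes called), led by MX1 at 0.99 and OAS2 at -1.43. In labelled prexasertib, 6 were higher and 9 lower in parent cells (36.3% of all genes called), where IRF7 fell by 0.84 and IRF1 by 0.33 (adjusted p = 1.55e-06 and 2.66e-05). In knockout cells 1 was higher and 9 were lower (12.9% of all genes called), led by IFIT1 at -1.37 (adjusted p = 6.93e-07) and IRF9 at -0.78 (adjusted p = 9.38e-06). The interaction was called for 5 of the 25, near the 16.8% of all genes, 4 higher and 1 lower, with BST2 at 0.48 (adjusted p = 0.000609) and IRF1 at -0.37 (adjusted p = 0.00127).

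The third list holds 6 genes known to act on SLFN11 transcription: the ETS factors FLI1 and ETS1, the polycomb subunits EZH2, EED and SUZ12, and the DNA methyltransferase DNMT1. In the knockout line, DNMT1 at 0.21 (SE 0.04, edgeR adjusted p = 4.19e-05) and EZH2 at 0.15 (SE 0.04, adjusted p = 0.00165) were the 2 higher, and 1 was lower, which makes 3 of 6 beside 43.6% of all genes. EZH2 turned with the treatment, at -0.21 (adjusted p = 0.00177) under labelled DMSO and 0.50 (adjusted p = 3.10e-08) under labelled prexasertib, while DNMT1 was at 0.20 and 0.22. ETS1 rose with labelled prexasertib in both lines, by 0.38 (adjusted p = 2.24e-07) in parent and 0.32 (adjusted p = 1.33e-05) in knockout cells, and FLI1 at 0.15 was not called in knockout cells (adjusted p = 0.0599). EZH2 fell by 0.61 (adjusted p = 3.79e-10) in parent cells, with an interaction of -0.70 (SE 0.07, adjusted p = 8.59e-08), the 1 called of the 6 beside 16.8% of all genes. EED was next at -0.28 (SE 0.10, adjusted p = 0.0523).

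Over the 12 libraries, SLFN11 and SLFN13 levels were alike and SLFN5 ran against them. Pearson's r of log2 CPM was 0.93 for SLFN11 with SLFN13, 0.80 for SLFN12 with SLFN13, 0.61 for SLFN11 with SLFN12, -0.97 for SLFN5 with SLFN13, -0.94 for SLFN5 with SLFN11 and -0.79 for SLFN5 with SLFN12. The libraries fall into 4 groups, so each r largely restates the group means. Among 11228 genes searched, those most like SLFN5 were SLC6A20 (r = 0.99), NAP1L3 (0.99) and SYNJ2 (0.99), and those most like SLFN11 were PLCL2 (0.98), ANGPT1 (0.97) and ENDOD1 (0.97). MDFIC (0.99), CNTD1 (0.98) and CRAT (0.98) were most like SLFN12, and LRRC1 (0.99), SETD7 (0.98) and PXK (0.98) most like SLFN13. SLC6A20, an amino acid transporter gene, had 2.78, 1.08, 11.1 and 7.25 CPM in parent labelled DMSO, parent labelled prexasertib, knockout labelled DMSO and knockout labelled prexasertib, and PLCL2 had 18.3, 25.5, 12.23 and 16.3 CPM.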

How the data were processed

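RNA was sequenced from 12 libraries of 2 CCRF-CEM lines, and each library has 1 deposited gene table. Per the file headers the tables hold read counts per gene for exons, introns and the whole gene, the same for reads outside other genes, and TPM values that the authors computed. Per the submitters' processing notes, Trim Galore 0.6.2, Trimmomatic 0.39, STAR 2.5.4a, Picard 2.9.2 and the hg19 build were used. The counter, the annotation and strand use are not given in the sources used here. Reads spanning exon and intron count in both classes, and 73.4 to 75.6% of counts up to 20 were even, so read ends were probably counted separately and counting error is larger than the counts alone give. Genes not listed in a table were set to 0. Copies on the Y pseudoautosomal region were left out, 29 to 33 in each library.

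Groups follow the record that holds each file. Exonic and intronic counts were tested with edgeR 4.0.16 (R 4.3.3; TMM, filterByExpr, robust quasi-likelihood test) in 1 model of 4 group means over all 12 libraries, with Benjamini-Hochberg adjustment over all genes. The test itself gives no SE. Each SE of an edgeR fold change is the absolute log2 fold change divided by the square root of its F statistic. The 95% confidence intervals use a normal quantile of that SE, so they are approximate and somewhat narrow. The log2 ratio of intronic to exonic reads (pseudocount 0.5, centred on the library median) was tested with limma 3.58.1 (trend, robust), and shares with an exact two-sided permutation test. On simulated counts for the line comparison over both treatments, 22553 genes in all, the exonic test found 53.1% of the genes altered 1.25-fold, 60.4% at 1.5-fold, 75.5% at 2-fold and 95.8% at 4-fold, and 5 of its 143 calls were false. For the interaction on 22562 genes it found 20, 34.7, 61.2 and 76% at these folds, and the ratio test on 16320 genes 0, 2.2, 18.8 and 77.6%. The simulated counts had the trended spread alone, without the spread of single genes about it. Exonic and intronic counts were drawn separately, and far fewer genes were altered than were called in the data. These rates therefore describe the simulated setting and need not hold for the real libraries. Pairing of libraries by the replicate numbers of the labels was not shown, and the main model did not use these numbers. Alternatives were DESeq2 1.42.0, no filter, the compared groups alone, a replicate block, each library left out, other read classes, the authors' TPM, other pseudocounts and minimums, and files by library name.

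The members and gene lists were chosen with earlier results of these data known, and lists were written from general knowledge. Named are all members, neighbours called over both treatments and the 3 nearest on each side, the 3 genes of highest Pearson r for each member with a mean of at least 1 CPM (log2 CPM with a pseudocount of 0.5, small RNAs, pseudogenes and unnamed transcripts left out), and the 2 genes of smallest p of each list and exonic comparison. Some genes are not reported here and are left out of the neighbours and lists. Strands and transcript words of 50 bases come from GENCODE 29.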

Additional observations from a re-analysis of the deposited data

How the results depend on the processing

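Over both treatments, the line comparison kept its calls in every alternative run: 5 members on exonic reads, 5 on intronic reads and 2 on the ratio. The SLFN11 share difference was 11.1 to 11.9 points with 1 library left out. Apart from the choice of treatment labels, 896 of the single values kept direction and side of the threshold, 33 lost their call, 12 gained one and 21 changed sign, all 21 being values that were not called.

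With files taken by library name, the treatment differences on exonic reads became 0.34 for SLFN5, -0.30 for SLFN11, 0.14 for SLFN12, -0.19 for SLFN13 and 0.25 for SLFN12L in parent cells, and 0.22, -0.40, 0.35, -0.30 and 0.70 in knockout cells. The interactions became 0.12, 0.10, -0.21, 0.11 and -0.45. On intronic reads SLFN5 became -0.18 in parent cells, -0.24 in knockout cells and 0.062 in the interaction, and SLFN11 -0.27, -0.51 and 0.25. On the ratio SLFN5 became -0.46, -0.46 and -0.0059, and SLFN11 0.088, -0.11 and 0.20.

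With all reads of the gene, SLFN12L became 0.024 in parent cells, 0.19 in knockout cells and -0.17 in the interaction. On the authors' TPM with a pseudocount of 1 and of 0.1, SLFN12 in parent cells became 0.0041 and 0.0083, and the interactions of SLFN5 0.013 and 0.0051, of SLFN11 0.031 and 0.029, and of SLFN13 0.039 and 0.024. The SLFN5 interaction on the ratio became -0.014 with a minimum mean of 50 reads and -0.021 with reads outside other genes. Every exonic and intronic read of SLFN5 lay outside other genes, so its own counts were the same in the latter run. The SLFN12L ratio between the lines became -0.078 with a pseudocount of 5. Here and below the cause was not tested.

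The share of all genes called in each alternative run is not given here. The counts of members in this section therefore cannot be set beside it. Treatment counts in knockout cells went from 4 to 1 on the authors' TPM with either pseudocount. Intronic counts in parent cells went from 1 to 0 with the 2 groups alone and to 2 without the filter. Intronic counts in knockout cells went from 1 to 2 with the replicate block, the 2 groups alone or DESeq2. The ratio count in parent cells went from 1 to 0 with the 2 groups alone. With 1 library left out, the ranges were 2 to 4 exonic calls in knockout cells, 0 to 1 exonic interactions, 1 to 2 intronic calls in each line, and 0 to 1 calls on the ratio in each line. The SLFN13 share difference ranged from -1.49 to -0.72 points and that of SLFN14 from -21.3 to -11.3. The SLFN5 interaction ranged from -0.13 to 0.032 on intronic reads and from -0.10 to 0.13 on the ratio.

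The replicate block gave SLFN5 as the added intronic call in knockout cells (0.24, adjusted p = 0.0326) and changed no other count of members called. Correlations of deviations between libraries of the same number ran from -0.058 to 0.12 (median 0.00995, 18 pairs), and those between other numbers from -0.094 to 0.056. The depth limits SLFN12L and SLFN14, which had at most 33 and 12 exonic reads in a library.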
